A study of Mus musculus with 6 samples.

Results

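The DEAD and DEAH box RNA helicases were examined in activated and quiescent neural stem cells of the adult mouse brain. Members were all genes whose current symbol begins with Ddx or Dhx and a number, Y-linked genes left out, that had a probe set annotated to exactly 1 gene, and no measured value entered this choice. The rule gave 51 members, carried by 113 probe sets, among 18193 genes with such a probe set. Of these members, 47 were bright enough to be tested among 11576 tested genes. Ddx4, Ddx43, Ddx60 and Dhx58 were below the filter, which asked for a mean log2 signal of 6.02 over the 6 arrays. A gene that is bright in only 1 group can pass such a filter through that group.

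Both groups came from the ventricular-subventricular zone of adult mouse brains, a layer beside the lateral ventricles where neurons are made throughout life. Activated cells were sorted as GFAP::GFP+CD133+EGFR+CD24-, and quiescent cells as GFAP::GFP+CD133+CD24-, so that the EGF receptor was named in the activated sort alone. All cells of both groups carried the same GFAP-driven GFP reporter, whose promoter is also used by astrocytes. Each group had 3 one-colour arrays that the labels call biological replicates. The sources used here do not give the number of animals behind each array, their exact age or their strain, and p-values measure the spread between these arrays. Values are log2 MAS5 signals, in which 1 unit is a 2-fold step. Each difference is the activated minus the quiescent mean in these units, ± SE from limma, with p-values adjusted over all tested genes and a threshold of 0.05.

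DEAD and DEAH box proteins bind RNA and ATP and use the energy of ATP to open short RNA duplexes or to strip proteins from RNA. They are named after the amino acids of a conserved ATP-binding motif. DEAD box proteins tend to open short helices locally and often act as clamps on RNA, whereas DEAH box proteins tend to move along a strand, often switched on by G-patch partner proteins. Members act at nearly every step in the life of an RNA: ribosome assembly, splicing, export from the nucleus, translation, decay and the sensing of viral RNA. Neural stem cells that leave quiescence take up ribosome and protein synthesis before they divide.

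Among 47 tested members 14 rose and 0 fell in activated cells, which is 29.8% of members higher. Over all tested genes 17.3% rose and 17.6% fell. Beyond the threshold, 39 of the 47 members had a difference above 0 (83.0%), against 50.3% of all tested genes. The median difference was 0.66 for members and 0.014 for all tested genes. Without quiescent array 3, 32 of the 47 members were above 0 and 15 below. The numbers of calls depended on the arrays, with 9, 8 and 7 members higher without activated array 1, 2 or 3. In those same fits 14.9% to 19.1% of members were higher, against 11.3% to 12.1% of all tested genes.

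**Figure D1:**
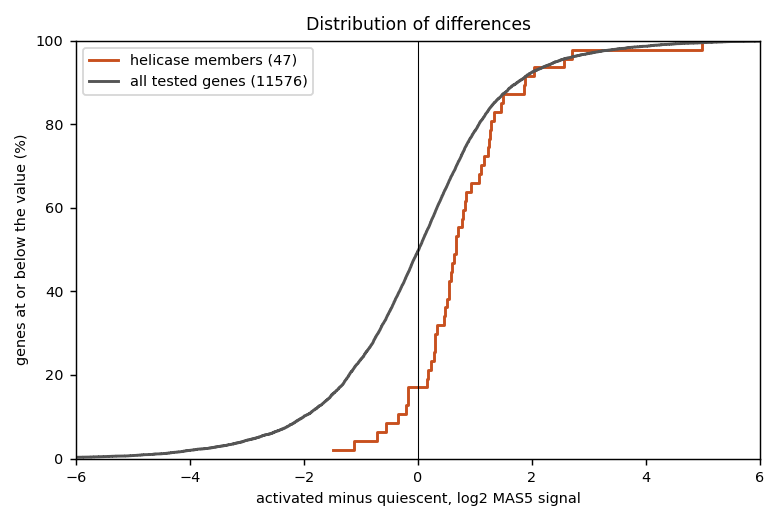
Cumulative share of genes, in percent, at or below each activated minus quiescent difference (log2 MAS5 signal), for the 47 tested helicase members (orange) and for all 11576 tested genes (grey). The member curve begins at -1.49 and lies to the right of the other over negative and small positive differences, and the curves come together at large positive differences.

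The members differed from the tested genes as a whole mainly in how few were lower. Differences below -1 were found for 2 members (4.26%), Ddx58 and Ddx23, against 23.8% of all tested genes. Differences above 1 were found for 16 members (34.0%), against 21.6%. The middle 50% of members lay between 0.29 and 1.24, and the middle 50% of all tested genes between -0.94 and 0.85 (quartiles). These shares describe the lists and were not tested. All 3 activated arrays lay above all 3 quiescent arrays for 19 members (40.4%), against 25.1% of tested genes, and below them for 1 member (2.13%), against 25.5%.

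On single arrays the median log2 signal of the 47 tested members was 9.45, 9.74 and 9.77 in activated cells, against 8.75, 8.89 and 8.96 in quiescent cells. The groups did not overlap in this median. The median over all tested genes was 9.28, 9.31 and 9.30 in activated cells, against 9.19, 9.17 and 9.29 in quiescent cells.

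**Figure D2:**
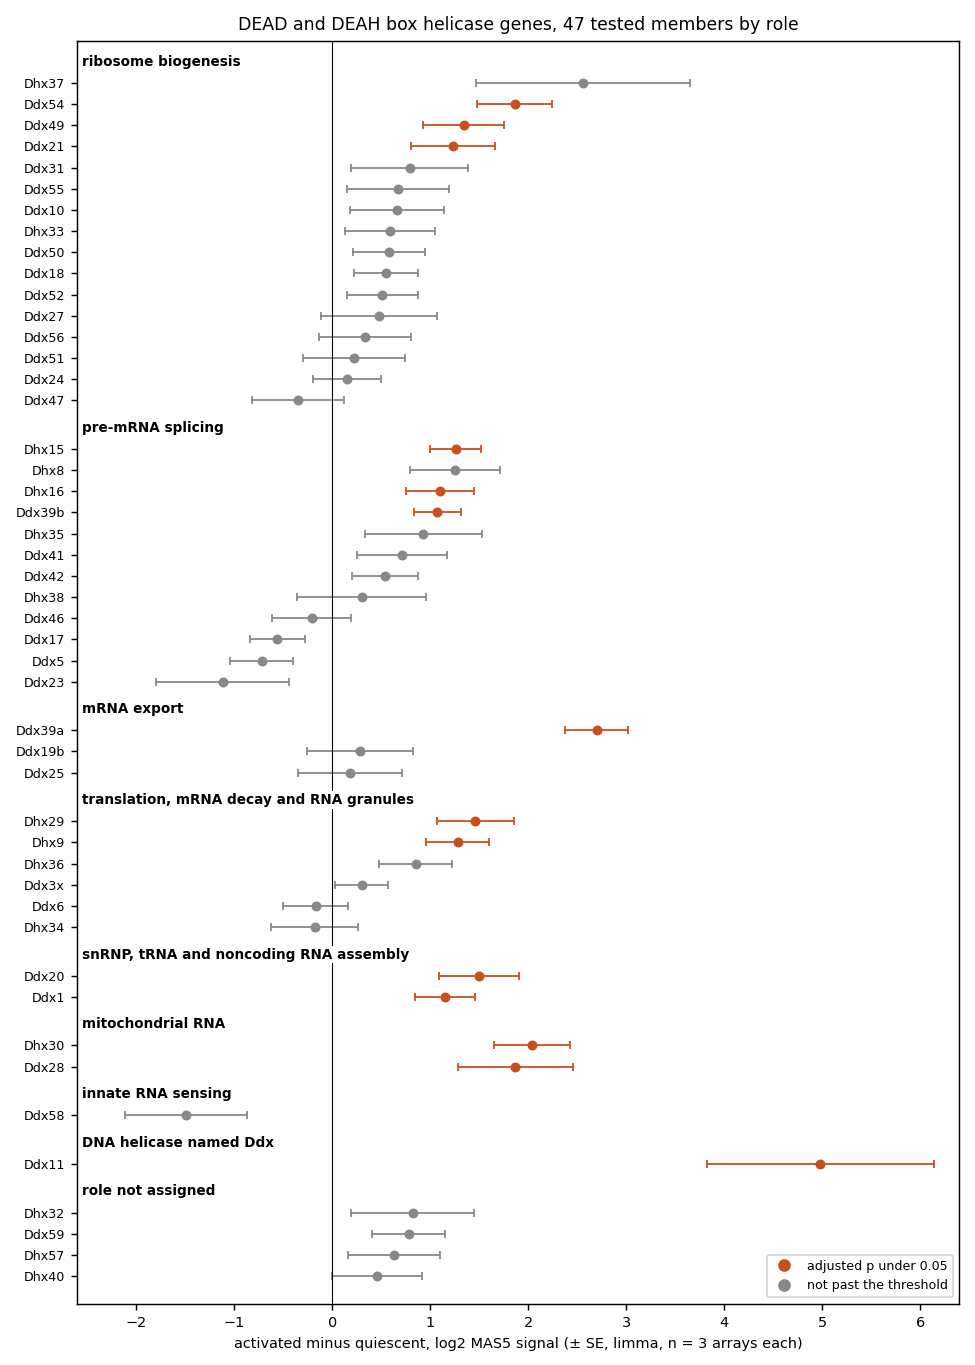
Activated minus quiescent difference (log2 MAS5 signal, ± SE from limma, 3 arrays per group) of each of the 47 tested members, grouped by role. The 14 members past an adjusted p of 0.05 (orange) lie between 1.07 for Ddx39b and 4.98 for Ddx11, and no member on the negative side is past it.

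The sort genes were read first: Egfr was higher by 2.11 ± 0.24 in activated cells (adjusted p = 0.000154), Gfap fell by 4.18 ± 0.58 and Prom1, which encodes CD133, fell by 1.22 ± 0.32. Cd24a was higher by 4.13 ± 0.50 in activated cells, with 13.36, 13.52 and 13.29 against 7.99, 9.31 and 10.48 in quiescent cells, although both sorts were gated as CD24-. Several measures of the arrays and of other cell types moved with the groups. The hybridisation controls averaged 13.7 ± 0.045 (SD) on activated and 14.3 ± 0.53 on quiescent arrays (two-sided exact permutation p = 0.1, the smallest that 3 against 3 arrays allow). Each array had its own background level, at or below which a signal counted as at background. This level averaged 4.6 ± 0.074 on activated and 5.67 ± 0.37 on quiescent arrays (exact permutation p = 0.1). Integrity of the RNA was read from Gapdh control probe sets, whose 3′ signal exceeded the 5′ signal by 1.37 ± 0.17 on activated and 2.05 ± 0.52 on quiescent arrays (exact permutation p = 0.1). For actin the same measure was 0.0727 ± 0.16 on activated and -0.0547 ± 0.16 on quiescent arrays, with overlap (exact permutation p = 0.4). With every array scaled to its hybridisation controls, 19 of 47 members were called higher (40.4%) and 0 lower, with 26.4% of all tested genes higher. The medians were then 1.31 for members and 0.66 for all tested genes, since this scaling adds the same amount to every difference. Genes of proliferating cells were higher in 9 of 9 tested cases, and none was at background throughout a group. The log2 of their summed linear signals was at least 15.8 on activated and 12.2 to 13.6 on quiescent arrays. Such sums, given below for each list, mainly follow its brightest genes. Neuroblast genes were higher in 7 of 10, with sums of 15.6 to 15.8 on activated and 12.3 to 13.5 on quiescent arrays. Quiescent stem cell and astrocyte genes were lower in 12 of 12 (14.8 to 15.2 on activated and 17.3 to 17.9 on quiescent arrays), with S100b at background on every activated array. Mature oligodendrocyte genes were lower in 10 of 10 (11.2 to 12.6 on activated and 14.4 to 16.3 on quiescent arrays). Endothelial genes were lower in 3 of 4 tested (7.39 to 8.0 on activated and 10.3 to 11.9 on quiescent arrays), with Pecam1, Tek, Tie1 and Kdr at background on every activated array. Pericyte genes were lower in 3 of 4 tested (8.21 to 9.07 on activated and 12.2 to 13.1 on quiescent arrays), with Kcnj8, Abcc9 and Anpep at background on every activated array. Mature neuron genes were higher in 3 of 6 tested (11.2 to 12.2 on activated and 10.4 to 11.0 on quiescent arrays). Ependymal genes were lower in 4 of 5 tested and higher in 1, Dnah11 (mean 11.0 on activated and 6.9 on quiescent arrays). Their sums were 11.1 to 11.8 on activated and 11.8 to 12.6 on quiescent arrays. Dnah11 was the brightest of them on activated arrays, so these activated sums mainly follow it. Rsph4a was at background on every activated array. The 1 tested microglial gene, Csf1r, was lower on all activated arrays without passing (-1.28 ± 0.62, adjusted p = 0.132). Cx3cr1 and P2ry12, which were not tested, were also lower on all activated arrays and above background on all quiescent arrays. Their means were 3.2 and 4.45 on activated, against 6.3 and 7.24 on quiescent arrays. C1qb overlapped between groups, and Tmem119, C1qa, C1qc, Aif1 and Trem2 were at background on all arrays of both groups. The log2 of the summed linear signals of all 9 microglial genes was 7.27 to 7.40 on activated and 8.58 to 9.10 on quiescent arrays. The part of other cells, of RNA integrity and of array scaling in the differences below was not tested. In such bulk samples, fewer cells of a type and less RNA per cell cannot be told apart.

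The promoters of the members that rose are shown first because several share a short element close to their start, as do some members that were not called. The 250 bases before each start in RefSeq's promoter table (GRCm38.p6) were searched on both strands for 4 motifs. Windows were matched by symbol for 45 of 51 members, and for 12 of the 14 that rose. The ETS-like motif CCGGAAG, the core bound by transcription factors of the ETS family, was found before 7 of these 12. The last 100 bases before the start of each follow, 5′ to 3′ along the gene, with the motif or its reverse complement in capitals.

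Ddx1 (chr12:13249175-13249274, minus strand): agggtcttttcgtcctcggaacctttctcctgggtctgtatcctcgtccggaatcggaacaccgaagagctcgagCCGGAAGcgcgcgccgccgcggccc
Ddx39b (chr17:35241646-35241745, plus strand): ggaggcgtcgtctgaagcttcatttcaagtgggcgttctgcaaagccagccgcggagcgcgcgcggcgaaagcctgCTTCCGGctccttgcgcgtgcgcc
Ddx49 (chr8:70302453-70302552, minus strand): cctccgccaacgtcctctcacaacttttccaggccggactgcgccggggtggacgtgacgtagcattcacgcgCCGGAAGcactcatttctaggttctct
Ddx54 (chr5:120613030-120613129, plus strand): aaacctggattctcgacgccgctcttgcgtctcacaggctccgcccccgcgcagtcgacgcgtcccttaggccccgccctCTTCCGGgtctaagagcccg
Dhx16 (chr17:35879678-35879777, plus strand): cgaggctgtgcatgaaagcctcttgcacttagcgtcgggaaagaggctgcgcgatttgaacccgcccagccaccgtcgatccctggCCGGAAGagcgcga
Dhx30 (chr9:110117617-110117716, minus strand): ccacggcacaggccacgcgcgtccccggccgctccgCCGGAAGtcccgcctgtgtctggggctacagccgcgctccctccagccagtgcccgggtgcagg
Dhx9 (chr1:153487661-153487760, minus strand): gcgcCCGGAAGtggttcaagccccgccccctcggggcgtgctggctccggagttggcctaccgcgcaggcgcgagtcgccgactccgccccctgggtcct

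In Ddx1, Ddx39b, Ddx49, Ddx54 and Dhx16 the motif began 25, 24, 27, 20 and 14 bases before the start. In Dhx30 and Dhx9 it began 64 and 96 bases before it. By window, 57.1% of the 14 windows of the members that rose held the motif, against 23.1% of the 39 windows of members tested and not called. The share was 15.7% among windows of all genes that rose, 13.3% among all tested genes and 6.91% among all 32851 windows of the table. Some genes have several windows, and the 2 windows of Ddx49 overlap and share 1 copy of the motif. A further 9 members that did not pass the test held it too. It began 11, 13, 15 and 36 bases before the start in Ddx55, Ddx50, Dhx36 (also at 47) and Dhx34. In Dhx35, Dhx37, Ddx5, Ddx10 and Ddx17 it began 58, 64, 114, 187 and 229 bases before the start.

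The ETS-like shares were not tested, and that motif was added after the calls were known. The other 3 motifs were counted in the same windows. The E-box CACGTG, a palindrome bound by Myc and related factors, was in 0 of the 14 windows of members that rose, in 12.8% of those of tested members not called and in 8.29% of those of all tested genes. The E2F-like motif TTTNGCGC was in 1 window, that of Dhx9 (7.14%), and in 1.99% of windows of all tested genes. The CCAAT box, CCAAT on either strand, was in 35.7% of windows of members that rose and in 35.3% of those of all tested genes. These matches describe letters in a window and do not show that a factor binds there.

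**Figure D3:**
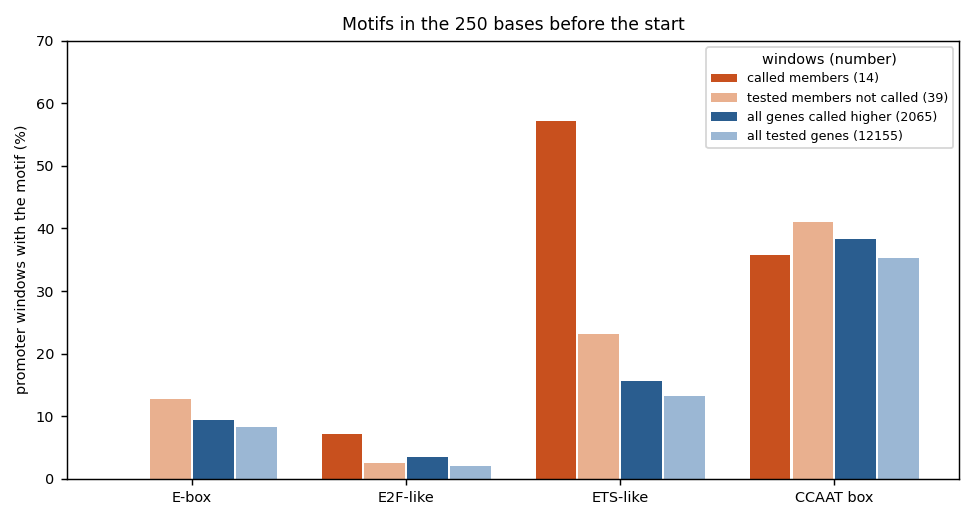
Share of promoter windows, in percent, that hold each of 4 motifs in the 250 bases before the start, for members that rose, members tested and not called, all genes that rose and all tested genes (number of windows in the legend). The ETS-like motif is in 57.1% of windows of members that rose and in 13.3% of windows of all tested genes.

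Ribosome assembly is the role with the most members, and 3 of its 16 rose, a share near the 17.3% of all tested genes, 0 fell and 13 did not pass. Of the 16 differences 15 were above 0, with a median of 0.59. Without quiescent array 3 the differences of Ddx24, Ddx27, Ddx47 and Ddx51 were below 0. The number that rose was 1 without activated array 2, without activated array 3 and without quiescent array 1. Ddx54, a nucleolar helicase of large subunit assembly, read 10.76, 11.67 and 11.74 in activated cells, against 9.90, 8.89 and 9.79 in quiescent cells. Its lowest activated array was above its highest quiescent array, and it rose by 1.86 ± 0.38 (adjusted p = 0.00411). Averaging its 3 probe sets ended the call (adjusted p = 0.117) and so did leaving out cross-hybridising probe sets (adjusted p = 0.17); its other sets differed by 0.81 and -0.36.

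Ddx49, also of ribosome assembly, read 9.42, 10.53 and 10.21 in activated cells, against 8.66, 8.32 and 9.16 in quiescent cells. The groups were apart by 0.26 at their closest, and the difference was 1.34 ± 0.41 (adjusted p = 0.0262). Its 2 further probe sets differed by 2.35 and 2.37, with overlapping arrays. The 2.35 rested on activated array 3, since that set read 7.52, 7.10 and 13.56 in activated cells, against 6.11, 7.38 and 7.64 in quiescent cells. It missed the threshold when activated array 2 (adjusted p = 0.119), activated array 3 (0.0904), quiescent array 1 (0.0566) or quiescent array 2 (0.0805) was left out, and when its probe sets were averaged (0.055).

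Ddx21 encodes a nucleolar helicase that couples transcription by RNA polymerase I to the processing of ribosomal RNA, and Ddx50 its close paralog. Ddx21 read 11.17, 11.49 and 11.26 in activated cells, against 10.28, 10.90 and 9.05 in quiescent cells, and its difference of 1.23 ± 0.43 was just past the threshold (adjusted p = 0.0461). The call was lost without any single array except quiescent array 2 (adjusted p up to 0.135). It was also lost after quantile normalization (0.0673), with no filter on dim genes (0.0542) and with no mean-variance trend (0.0882). A second Ddx21 probe set was also higher on every activated array, by 1.82. Ddx50 read 12.42, 11.53 and 12.11 in activated cells, against 12.08, 11.53 and 10.71 in quiescent cells, so that the groups overlapped (difference 0.58 ± 0.37, adjusted p = 0.247). A further Ddx50 probe set differed by -1.0, against the other 2.

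Of the ribosome assembly members that did not pass, Dhx37, which releases the U3 small nucleolar RNA from the small subunit precursor, had the smallest p. It read 8.49, 8.64 and 8.66 in activated cells, against 3.02, 6.61 and 8.47 in quiescent cells. The activated arrays were nearly equal while the quiescent arrays spread widely, and the difference was 2.56 ± 1.09 (adjusted p = 0.0931). Without quiescent array 3 it passed (3.78, adjusted p = 0.00966). Quiescent array 1 was at background, and the group means then differed by at least 2.90-fold. Ddx10 and Ddx52 were higher on all activated arrays, by 0.66 and 0.51, without passing. The other uncalled members, Ddx18, Ddx24, Ddx27, Ddx31, Ddx47, Ddx51, Ddx55, Ddx56 and Dhx33, had overlapping arrays and differences of -0.35 to 0.79 on the sets used. Further sets did not overlap for Ddx47 (-2.3), Ddx24 (-1.71, opposite in sign to the set used) and Ddx18 (1.23).

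In pre-mRNA splicing 3 of 12 members rose, 0 fell and 9 did not pass, with a median difference of 0.63. Over all tested genes 17.3% rose and 17.6% fell, and the count was not tested against these shares. This role held 4 of the 8 members whose difference was below 0. Dhx15, the helicase that takes spliceosomes apart after splicing, read 12.14, 12.71 and 12.43 in activated cells, against 10.99, 11.40 and 11.12 in quiescent cells. The groups were apart by 0.75 at their closest, and Dhx15 rose by 1.26 ± 0.26 (adjusted p = 0.00424), a call kept under all 17 alternative settings. Its second probe set was higher by 1.06 with no overlap.

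Dhx16, which drives the activated spliceosome to the first step of splicing, read 9.45, 9.72 and 9.77 in activated cells, against 8.61, 8.37 and 8.68 in quiescent cells. Both groups were tight, and the difference was 1.10 ± 0.35 (adjusted p = 0.0312). The call was lost without any single array except quiescent arrays 1 and 3 (adjusted p up to 0.106). Dhx8, which releases spliced mRNA, read 8.25, 8.41 and 8.99 in activated cells, against 7.72, 7.13 and 7.04 in quiescent cells. It did not overlap between groups but missed the threshold (difference 1.25 ± 0.46, adjusted p = 0.0578). Dhx8 passed under 6 of the alternative settings (adjusted p of 0.0182 to 0.0486).

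Ddx39a and Ddx39b are close paralogs that load export factors onto spliced mRNA, and Ddx39b also acts early in splicing. Ddx39a read 12.02, 12.81 and 12.67 in activated cells, against 9.31, 9.95 and 10.14 in quiescent cells. It was 6.51-fold higher (difference 2.70 ± 0.32, adjusted p = 0.000207), had the smallest p of the members, and remained called under all 17 alternative settings. Of its 4 further probe sets 3 were higher by 1.86 to 2.83 with no overlap, and a dim one differed by -0.96.

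Ddx39b read 12.67, 13.15 and 12.85 in activated cells, against 11.78, 11.98 and 11.70 in quiescent cells. It rose by 1.07 ± 0.24 (adjusted p = 0.00669), which is 2.09-fold. A dim Ddx39b probe set, at background on 4 of 6 arrays, differed by -4.30, so that the mean over the probe sets of Ddx39b was -0.19 (adjusted p = 0.613), while the 2 others were higher by 1.15 and 1.31. Both paralogs rose, and the difference of 2.70 for Ddx39a exceeded the 1.07 for Ddx39b. That gap was not tested, and near-identical stretches of the paralogs may share probes. Of the other export members, Ddx19b, which releases export factors at the nuclear pore, differed by 0.28 ± 0.54 (adjusted p = 0.71) and Ddx25, known from testis, by 0.18 ± 0.53, with overlapping arrays. A further Ddx19b probe set was higher by 1.19 with no overlap, and another differed by -0.35, opposite in sign to the one used. Ddx19a, the paralog of Ddx19b, was not analysed here.

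**Figure D4:**
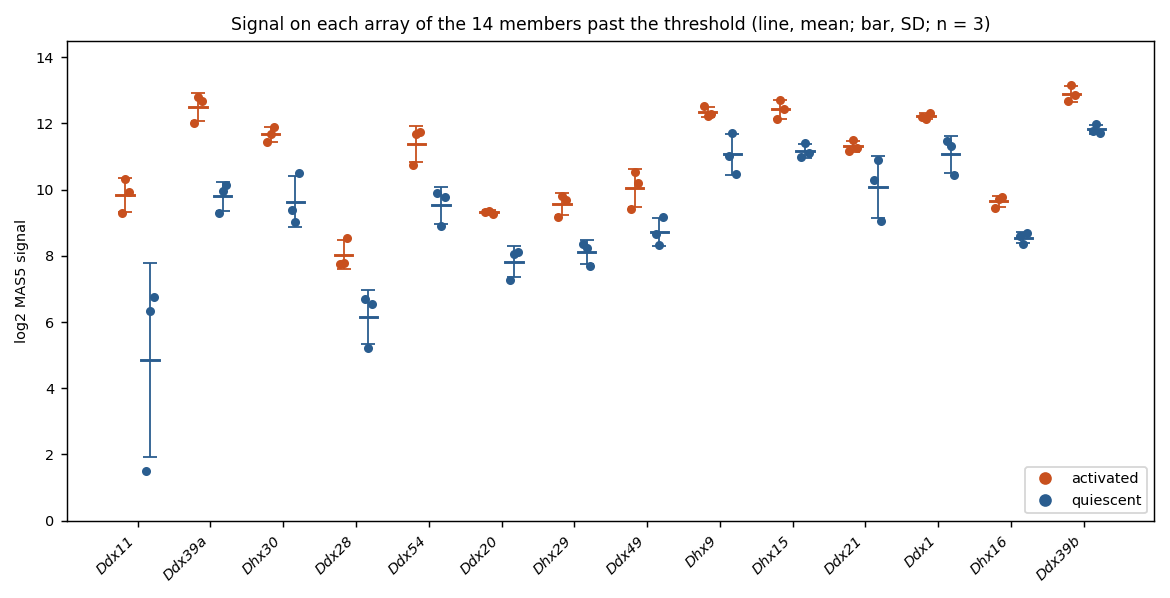
Log2 MAS5 signal on each of 3 activated (orange) and 3 quiescent (blue) arrays for the 14 members past the threshold, with the mean (line) and SD (bar), ordered by difference. The activated points lie above the quiescent points for each gene, and quiescent array 1 reads 1.49 for Ddx11.

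Ddx5 and Ddx17, paralogous helicases of alternative splicing that also assist the Microprocessor in cutting miRNA precursors, were among the 33 members that did not pass. Ddx5 read 13.71, 13.51 and 13.44 in activated cells, against 14.87, 14.40 and 13.54 in quiescent cells (difference -0.72 ± 0.32, adjusted p = 0.103). Ddx17 read 12.74, 13.27 and 12.94 in activated cells, against 13.89, 13.05 and 13.69 in quiescent cells (difference -0.56 ± 0.28, adjusted p = 0.14). Both overlapped between groups and neither passed. Scaling to the hybridisation controls moved Ddx5 to -0.075 and turned Ddx17 to 0.086.

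Other processing gave calls for both paralogs. Ddx5 passed after quantile normalization (-0.65, adjusted p = 0.0428) and without quiescent array 3 (-1.08, adjusted p = 0.00215). Ddx17 passed when its probe sets were averaged (-0.96, adjusted p = 0.0232) and when cross-hybridising sets were left out (-1.01, adjusted p = 0.0242). Its 2 further probe sets differed by -1.31 and -1.01, while the 3 further bright sets of Ddx5 differed by -0.33 to -0.023. The remaining splicing members, Ddx23, Ddx41, Ddx42, Ddx46, Dhx35 and Dhx38, ranged from -1.12 to 0.93 with overlapping arrays. A second Ddx23 probe set differed by 2.15, opposite in sign to the one used. For Ddx46, the 4 further probe sets were opposite in sign to the one used (0.22 to 1.36, against -0.21).

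**Figure D5:**
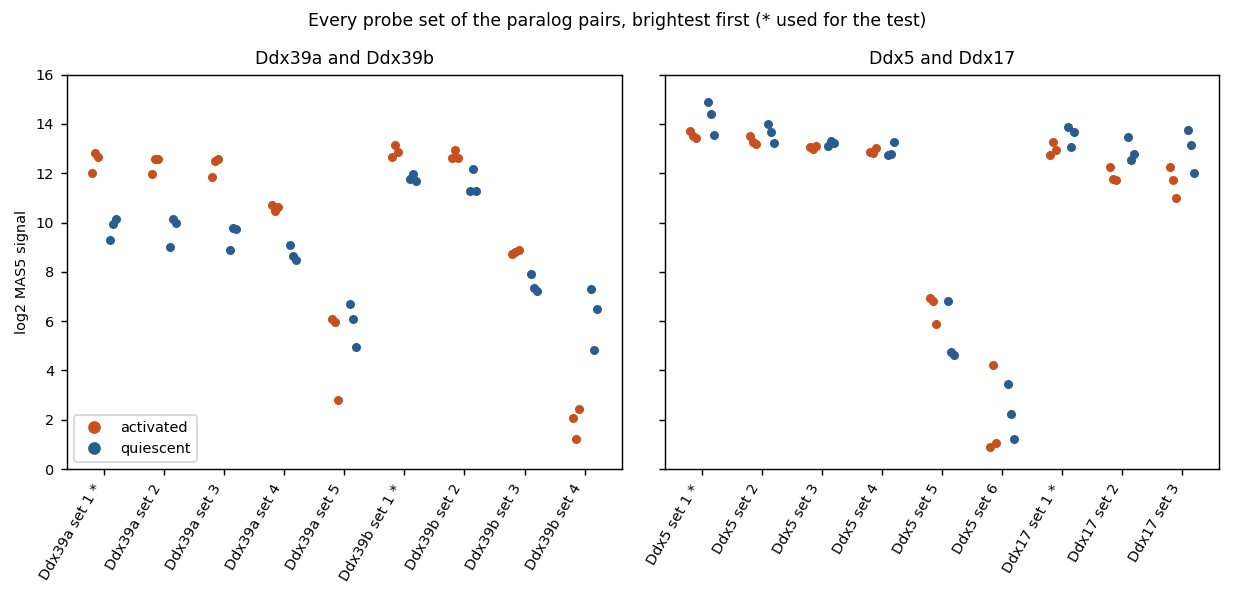
Log2 MAS5 signal of every probe set of Ddx39a and Ddx39b (left) and of Ddx5 and Ddx17 (right), on 3 activated (orange) and 3 quiescent (blue) arrays each, brightest set first and the tested set starred. The 4 brighter Ddx39a sets and 3 brighter Ddx39b sets are higher in activated cells with no overlap, and the bright Ddx5 and Ddx17 sets are level or lower.

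Among 6 members listed under translation, mRNA decay and RNA granules, 2 rose and 0 fell, against 17.3% and 17.6% of all tested genes. Dhx29, which helps the small ribosomal subunit scan structured mRNA leaders, read 9.18, 9.80 and 9.70 in activated cells, against 8.37, 8.25 and 7.69 in quiescent cells. The groups were apart by 0.81 at their closest (difference 1.46 ± 0.39, adjusted p = 0.0158), and leaving out activated array 2 (adjusted p = 0.072) or 3 (0.0644) ended the call. Dhx9, which this list also holds, is a nuclear helicase of structured RNA and RNA-DNA hybrids. It read 12.53, 12.22 and 12.30 in activated cells, against 11.03, 11.71 and 10.47 in quiescent cells. It rose by 1.28 ± 0.32 (adjusted p = 0.0119), and its other bright probe set by 1.32. Dhx9 missed the threshold when activated array 1 was left out (adjusted p = 0.0512) and when its probe sets were averaged (0.133), one of which was at background on all 6 arrays.

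The remaining members of this role did not pass. Dhx36, which unwinds G-quadruplexes, came closest (difference 0.85 ± 0.37, adjusted p = 0.0995), with activated arrays of 10.22, 9.94 and 10.54 against quiescent arrays of 8.87, 9.98 and 9.30. Ddx3x, an X-linked helicase of translation initiation, differed by 0.30 ± 0.27 (adjusted p = 0.406). Its 2 further probe sets were higher by 0.56 and 0.63 with no overlap. Ddx6, which holds silenced mRNA in P-bodies, differed by -0.17 ± 0.33 (adjusted p = 0.714). Further bright probe sets of Ddx6 differed by 1.26 and 0.47, opposite in sign to the one used. Dhx34, a factor of nonsense-mediated decay, differed by -0.18 ± 0.44 (adjusted p = 0.774).

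Ddx20 and Ddx1, listed together here although they act on different RNAs, both rose, against 17.3% of all tested genes. This count was not tested. Ddx20, also called Gemin3, a subunit of the SMN complex, read 9.33, 9.37 and 9.28 in activated cells, against 7.28, 8.07 and 8.13 in quiescent cells. The groups were apart by 1.15 at their closest, and it rose by 1.5 ± 0.41 (adjusted p = 0.0165), a call lost without any single activated array (adjusted p = 0.0535 to 0.06). Ddx1, a subunit of the tRNA ligase complex, read 12.20, 12.15 and 12.31 in activated cells, against 11.47, 11.31 and 10.44 in quiescent cells. It rose by 1.15 ± 0.31 (adjusted p = 0.0149), and without activated array 3 the adjusted p was 0.0597.

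Both members of mitochondrial RNA metabolism rose as well, against 17.3% of all tested genes, and this count was not tested. Dhx30, which acts in mitochondrial RNA granules and on mitochondrial ribosomes, read 11.45, 11.69 and 11.90 in activated cells, against 9.39, 9.02 and 10.51 in quiescent cells. It was 4.11-fold higher (difference 2.04 ± 0.39, adjusted p = 0.00264), and the call held under all 17 alternative settings. Of its further probe sets 2 were higher by 1.02 and 2.54 with no overlap, and 1 differed by -0.68 with overlap. Ddx28, needed for the large mitochondrial ribosomal subunit, read 7.76, 7.80 and 8.55 in activated cells, against 6.71, 5.23 and 6.55 in quiescent cells. With quiescent array 2 at background it was at least 3.48-fold higher (difference 1.87 ± 0.59, adjusted p = 0.0316). Its call was lost without any single activated array or quiescent array 2 (adjusted p = 0.0678 to 0.129).

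Ddx11 had the largest difference of all tested members. Although it carries a Ddx symbol, it encodes a DNA helicase that keeps sister chromatids together during replication. It read 9.29, 10.31 and 9.93 in activated cells, against 1.49, 6.35 and 6.75 in quiescent cells. Quiescent array 1 was at background, so that activated cells were at least 10.9-fold higher (fitted difference 4.98 ± 1.16, adjusted p = 0.00781). The call held under all 17 alternative settings, with differences of 3.29 to 5.92. A second Ddx11 probe set was higher by 2.73 with no overlap. Genes of proliferating cells were higher in 9 of 9 tested cases on the same arrays, and their part in this difference was not tested.

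Of the 3 sensors of viral RNA, 1 was bright enough to be tested. Ddx58, which encodes RIG-I, read 5.72, 5.04 and 6.59 in activated cells, against 7.41, 6.98 and 7.42 in quiescent cells. It was the 1 tested member whose activated arrays all lay below its quiescent arrays, without passing the test (difference -1.49 ± 0.62, adjusted p = 0.0851). It passed when 16 was added to linear signals (-1.70, adjusted p = 0.0198) and without a mean-variance trend (adjusted p = 0.036), while scaling to the hybridisation controls gave -0.85 (adjusted p = 0.37). A second Ddx58 probe set differed by -2.04 with no overlap. The 5.04 of the tested Ddx58 set lay above the background of its array (4.52) and below that of each quiescent array (5.45 to 6.1). Ddx60, an interferon-induced gene that was not tested, read 4.51, 2.93 and 0.40 in activated cells, against 5.98, 5.72 and 5.05 in quiescent cells, and 5 of those 6 values were at background.

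Dhx58, which encodes LGP2, read 3.85, 7.28 and 1.68 in activated cells, against 6.20, 4.36 and 4.39 in quiescent cells. The germline helicase Ddx4, also known as Vasa, was at background on 5 of 6 arrays, with a highest value of 4.74. Ddx43, known from testis and tumours, read 4.68, 0.88 and 5.84 in activated cells, against 6.19, 6.53 and 2.82 in quiescent cells. Dhx58, Ddx4 and Ddx43 overlapped between groups and, like Ddx60, were below the filter. Among members given no role here, 0 of 4 passed. Their differences were 0.46 for Dhx40, 0.63 for Dhx57, 0.78 ± 0.37 for Ddx59 (adjusted p = 0.124) and 0.82 for Dhx32.

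By motif name, 9 of 32 tested Ddx members and 5 of 15 tested Dhx members rose, against 17.3% of all tested genes. The median difference was 0.54 for Ddx and 0.93 for Dhx members. Of the 8 differences below 0, 7 belonged to Ddx members. The classes were not tested against each other.

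Partners and regulators of these or related helicases were followed by lists of their own. The counts of each list below stand beside 17.3% of all tested genes higher and 17.6% lower, and were not tested against these shares. Among MIF4G-type and related activators or inhibitors of helicases, 3 of 7 tested genes rose and 1 fell (median 0.51). The number that rose was 1 without activated array 2 or 3, and the 1 that fell was not called without any single array except quiescent array 3. The eIF4A cofactor Eif4b read 11.77, 11.91 and 12.29 in activated cells, against 11.32, 11.16 and 10.53 in quiescent cells (0.99 ± 0.29, adjusted p = 0.0248), and missed the threshold without activated array 2 (0.068) or 3 (0.109). Eif4h, a related cofactor, was higher by 1.39 ± 0.40 (adjusted p = 0.0207), but was at -1.06 (adjusted p = 0.0606) when cross-hybridising probe sets were left out. Its call also ended without activated array 2 or 3 or quiescent array 1 or 2 (adjusted p of 0.0525 to 0.0785). Pdcd4, an inhibitor of eIF4A, fell by 0.86 ± 0.26 (adjusted p = 0.027), with 12.63, 12.71 and 12.64 in activated cells against 13.79, 13.75 and 13.02 in quiescent cells. Scaled to the hybridisation controls Pdcd4 was at -0.22 (adjusted p = 0.613).

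Of 17 tested genes with a G-patch, 4 rose and 1 fell (median 0.36). The number that rose was 0 without activated array 2, 1 without activated array 1 or 3, and 2 without quiescent array 1 or 2. Cmtr1, a cap methyltransferase that binds Dhx15, read 9.88, 9.83 and 10.17 in activated cells, against 7.65, 8.10 and 9.35 in quiescent cells (1.59 ± 0.46, adjusted p = 0.0219), a call that ended without any single array except quiescent array 3 and when its probe sets were averaged (0.4, adjusted p = 0.369). Gpkow, the partner of Dhx16, was higher by 1.32 ± 0.34 (adjusted p = 0.0132), but the mean of its probe sets was at -0.19 (adjusted p = 0.731), and without activated array 2 the adjusted p was 0.0584. Son, a large splicing cofactor of nuclear speckles, fell by 1.29 ± 0.30 (adjusted p = 0.00829), and did not pass with arrays scaled to the hybridisation controls (-0.65, adjusted p = 0.102) or when its probe sets were averaged (-0.41, adjusted p = 0.172).

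In the exon junction and TREX complexes, which work beside Ddx39a and Ddx39b in export, 3 of 9 tested genes rose and 0 fell (median 1.02). Alyref, the adaptor that Ddx39b loads onto mRNA, read 12.11, 12.26 and 12.03 in activated cells, against 9.93, 9.96 and 9.66 in quiescent cells. Its groups were tight and far apart (2.28 ± 0.26, adjusted p = 0.000153). Thoc7, a subunit of the THO complex, was higher by 1.29 ± 0.26 (adjusted p = 0.00386), with 11.66, 11.53 and 11.66 in activated cells against 10.08, 10.39 and 10.51 in quiescent cells.

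Of 9 tested partners of Ddx6 in repression and decapping, 4 rose and 0 fell (median 0.94), although Ddx6 itself did not pass. The number that rose was 1 without activated array 1 or 2, and 2 without activated array 3 or quiescent array 2. Eif4enif1, which carries eIF4E into P-bodies, read 10.45, 10.36 and 10.69 in activated cells, against 7.84, 8.33 and 9.65 in quiescent cells (1.89 ± 0.46, adjusted p = 0.00932). Patl1, a decapping scaffold, was higher by 1.37 ± 0.48 (adjusted p = 0.0477), a call lost without any single array except quiescent array 3.

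Of 8 tested genes of the Microprocessor and SMN complexes, 4 rose and 0 fell (median 1.16), and the number was 2 without activated array 1 or quiescent array 2 and 1 without activated array 2 or 3. Dgcr8, the RNA-binding subunit of the Microprocessor, read 10.61, 11.20 and 11.26 in activated cells, against 9.54, 9.01 and 8.97 in quiescent cells (1.85 ± 0.33, adjusted p = 0.00177). Smn1, the core of the SMN complex that holds Ddx20, read 9.77, 10.41 and 10.62 in activated cells, against 8.53, 8.93 and 9.05 in quiescent cells (1.43 ± 0.36, adjusted p = 0.011). Smn1 missed the threshold when activated array 2 (adjusted p = 0.05) or 3 (0.0589) was left out.

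Of 15 tested helicases of the same superfamily under other symbols, 2 rose and 0 fell, with a median difference of 0.17. The number was 0 without activated array 1 or 3, and 1 without activated array 2 or quiescent array 2. Mtrex, the helicase of the nuclear exosome, read 11.32, 11.08 and 11.42 in activated cells, against 10.39, 10.18 and 10.30 in quiescent cells (0.99 ± 0.26, adjusted p = 0.0152). The Mtrex call ended without activated array 1 (adjusted p = 0.0568) or 3 (0.0703) and when its probe sets were averaged (0.69, adjusted p = 0.393). Of the initiation helicases, Eif4a1 was higher by 0.74 ± 0.25 (adjusted p = 0.041), a call lost without any single array except quiescent array 3, and its paralog Eif4a2 differed by -0.47 ± 0.26 (adjusted p = 0.186).

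Probe sets not used for the tests gave a second reading of the members. Of 62 further probe sets, 44 had the same sign as the one used and 18 the opposite. Among the 44 further sets above background on all 6 arrays, 32 had the same sign and 12 the opposite. For members that rose, 13 of 15 such bright sets had the same sign, the exceptions being one set each of Ddx54 and Dhx30. Probe sets of a gene are read from the same RNA and are not replicates.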

How the data were processed

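RNA of 3 activated and 3 quiescent samples was measured on one-colour arrays. Per the labels' protocols, total RNA was amplified with a NuGEN Pico kit and labelled with biotin. The deposited values are log2 signals, and the submitters' processing notes name MAS5 as the tool, with a version not given in the sources used here. The linear 2% trimmed mean was 500.0 on each array, so differences are relative to that scaling. No pseudocount was added. Apart from 64 controls, 34945 probe sets had 1 gene in the platform annotation, 932 several and 9160 none. A RefSeq table (GRCm38.p6) supplied current symbols through Entrez identifiers (99.4% found). The brightest probe set of a gene was used, and a gene was tested when its mean was at or over the 40th percentile of probe set means. The comparison used lmFit and trended eBayes (limma 3.58.1, R 4.3.3; figures, matplotlib 3.10.9), with Benjamini-Hochberg adjustment over 11576 genes, after a test on simulated data. Background was the 95th percentile of 27 bacterial control probe sets on each array. A fold against a group with an array at background is a lower bound, from group means with values raised to background.

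The members were chosen by symbol, and the role groups and partner lists with earlier results of these data known. Named were all called members, 4 fixed paralog pairs, the uncalled member of smallest p in each role and up to 2 called partners per list and direction. Ddx23, Ddx46, Ddx6 and other members were added for a complete account. The planned protein sequences were not used here. Only the E-box was planned for the promoter search, and the other 3 motifs were added later. Same-numbered arrays did not deviate together (r = 0.0561, -0.0246 and 0.0291), so arrays were not treated as pairs.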

Additional observations from a re-analysis of the deposited data

How the results depend on the processing

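Of the 14 members that rose, 4 (Ddx11, Ddx39a, Dhx15 and Dhx30) were called under all 17 other settings, and 9 members that were not called passed under at least 1. Ddx39b turned to -0.19 from the mean of its probe sets, as did Gpkow (-0.19), and Eif4h turned to -1.06 without cross-hybridising sets. Over single arrays left out, members higher ranged from 7 to 14 and lower from 0 to 1, genes higher from 1313 to 2440 and lower from 1540 to 2176. Scaling to the hybridisation controls gave 3059 higher and 943 lower genes and a member median of 1.31, and the cause was not tested. Members lower were 1 after quantile normalization, with 16 added, from the mean of probe sets, without cross-hybridising sets and without a trend, against 0 as reported. The unadjusted p was under 0.05 for 2 lower members, Ddx5 and Ddx58.

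Over single arrays left out, ribosome assembly helicases higher ranged from 1 to 3 and splicing helicases lower from 0 to 1. Partner counts higher ranged from 1 to 3 (MIF4G, lower 0 to 1), 0 to 4 (G-patch), 2 to 4 (export), 1 to 5 (Ddx6), 1 to 6 (Microprocessor and SMN) and 0 to 2 (other helicases, lower 0 to 1). The mean of probe sets gave 1 ribosome assembly helicase higher, 1 splicing helicase lower, 2 G-patch and 5 export genes higher. Splicing helicases lower were also 1 after quantile normalization and without cross-hybridising sets. Scaling to the hybridisation controls gave 5 export and 7 Microprocessor and SMN genes higher, and 0 MIF4G and 0 G-patch genes lower. Without a trend MIF4G genes were 1 higher and 0 lower, 2 Ddx6 partners were higher and 1 other helicase. Other helicases higher were 1 after quantile normalization, with no filter and with the replicate number as a block. That block gave 1955 genes higher and 1979 lower and 13 members higher, Dhx16 being lost (adjusted p = 0.0539). Precision is limited by 3 arrays per group.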
